A study of Mus musculus with 6 samples.

Results

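Muscle of MDX mice that had drunk JJ101 was compared with muscle of wild-type C57BL/10 mice that had drunk tap water, across all genes on the array. The MDX_JJ101 group held the 2 arrays titled as JJ101-fed MDX muscle and the B10_tap group the 2 arrays titled as tap-fed B10 muscle, so the comparison used 4 of the 6 arrays of the study. MDX mice carry a mutation of the dystrophin gene, C57BL/10 is their background strain, and JJ101 is described by the submitters only as a ceramic or bioceramic water. The feeding lasted 10 months, and the labels used here give neither age nor sex. The study asked how such water alters gene expression in muscle. The other 2 arrays, MDX mice on tap water (MDX_tap), entered the fit for its estimate of the spread and are quoted as levels for context. The 2 groups differ in genotype and in water at once. They also lay in different rows and columns of the single slide (B10_tap in row 1, columns 1 and 2; MDX_JJ101 in row 2, columns 3 and 4). Genotype, water and slide position therefore cannot be told apart here. The labels number the replicates without saying that they came from separate mice, so the spread between them may be technical.

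Dystrophin links the actin cytoskeleton of a muscle fibre to a membrane complex of dystroglycan, sarcoglycans, sarcospan and syntrophins, and through it to laminin outside the cell. Without it the membrane tears during contraction, fibres die and regenerate, macrophages enter, and matrix builds up. In heart muscle the loss leads slowly to a cardiomyopathy marked by natriuretic peptides and strain-responsive sarcomere genes.

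Levels are log2 signals after subtraction of the 75th percentile of their array, so that 0 marks this percentile. A difference is MDX_JJ101 minus B10_tap on that scale with its standard error (SE), and a gene was called when limma's Benjamini-Hochberg adjusted p was under 0.05. The share of spots well above background was 51.4 to 51.6% on the B10_tap arrays and 42.5 to 43.8% on the MDX_JJ101 arrays. Replicates correlated at 0.995 in B10_tap and 0.989 in MDX_JJ101. The tissue is labelled as gastrocnemius, a limb muscle. All 12 heart regulators and hormones tested, among them the heart transcription factors Nkx2-5 and Gata4, and all 10 heart contractile genes tested, among them the heart myosin Myh6, were well above background on all 4 arrays. Of 20 limb muscle regulators 8 passed the filter and 4 were well above background on all 4 arrays. The label and these markers thus differ for both groups.

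Of 20870 genes and transcripts, 7009 were called (33.6% of those tested), 3376 higher (16.2%) and 3633 lower (17.4%) in MDX_JJ101. The 2 groups did not overlap for 75.3% of all genes tested. The call reached 9999 genes at an unadjusted p under 0.05. A difference of at least 2-fold with both groups measured was called for 899 genes, 279 higher and 620 lower. A further 1333 called genes had no array well above background in at least 1 group, 44 higher and 1289 lower, so their folds are bounds only.

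The split between higher and lower rests on the scaling. Of the called genes 48.2% were higher with the 75th percentile of all spots, 83.7% with median centring (8457 higher, 1645 lower) and 26.2% with the percentile taken over spots well above background on every array (1793 higher, 5054 lower). With the spike-in controls, RNAs added in known amounts, 2.35% were higher (105 higher, 4354 lower). Without a filter on dim genes the share was 73.1%, and with every gene well above background on all arrays it was 60.4%. The median difference of all genes was -0.01 with the main scaling, 0.39 with median centring, -0.17 with the restricted percentile and -0.47 with the spike-ins. With the spike-ins limma called no member higher in the lists of the dystrophin complex, heart contractile genes, ion channels, glycolysis, citric acid cycle, fatty acids, oxidative phosphorylation, mitochondrial biogenesis, autophagy, ubiquitin ligases, proteasome and chaperones. In that fit limma gave all genes a shared spread (infinite prior degrees of freedom), so a call depended on the size of a difference alone. The mean log2 signal of the spike-ins was 11.18 and 11.19 on the B10_tap arrays and 11.36 and 11.72 on the MDX_JJ101 arrays. Across the scalings above, differences of single genes and medians of lists move by nearly the same amounts as the median of all genes. Whether a median keeps its sign under them follows from its size, and each median below is best read against that of all genes. The number of calls also rests on each B10_tap array. It was 112 without B10_tap replicate 1 and 76 without replicate 2, against 3628 without MDX_JJ101 replicate 2 and 6908 without MDX_JJ101 replicate 1. Of the 160 called genes named here, 4 and 2 stayed called without B10_tap replicate 1 and replicate 2, with the lone array assumed to vary like the other groups. Of all lists below, 1 member of the matrix turnover list and 1 of the B cell list were called without B10_tap replicate 1, and 1 of the matrix turnover list without replicate 2.

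**Figure D1:**
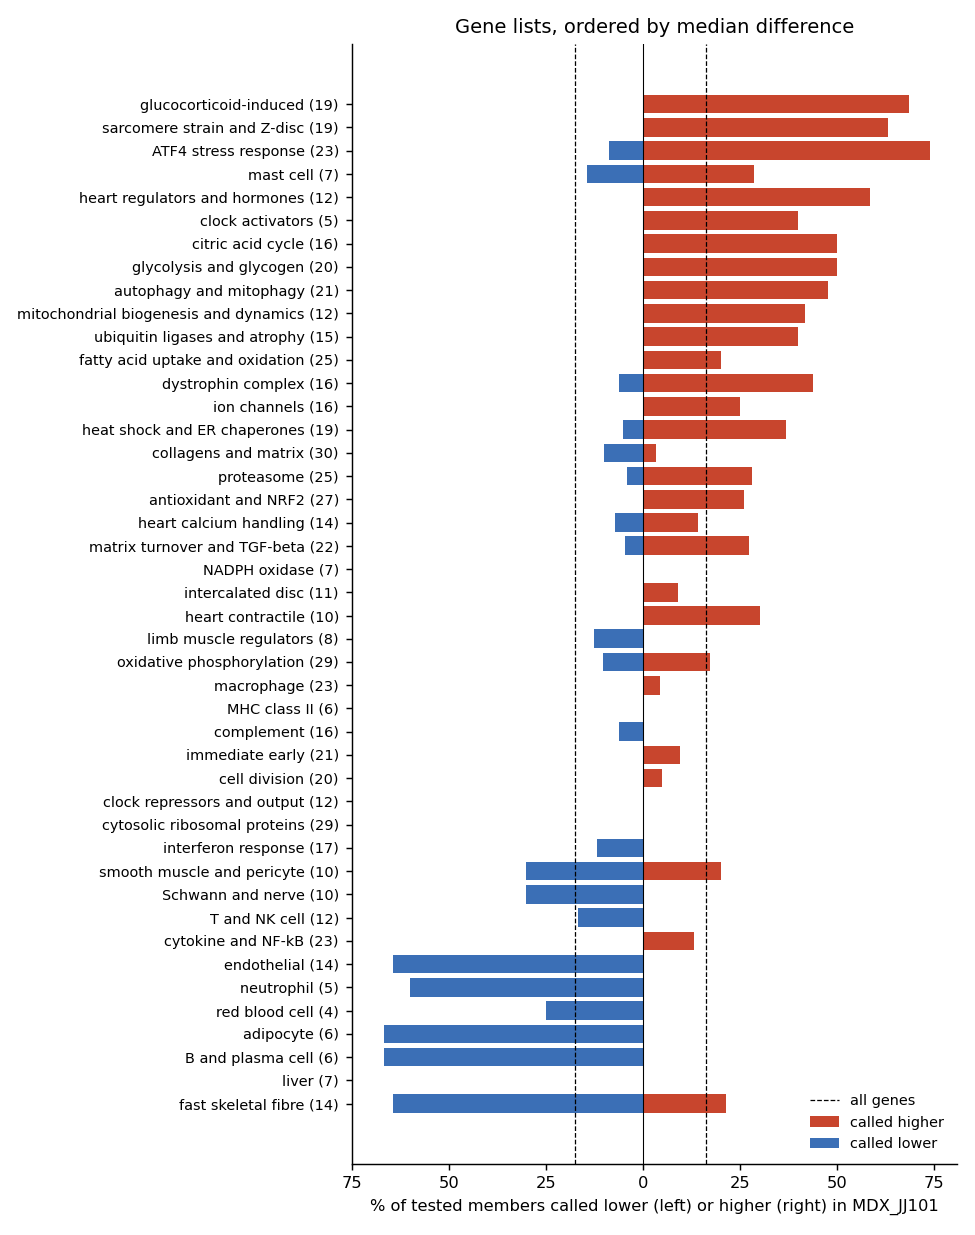
Share of the tested members of each gene list (horizontal axis, in %) called higher (right, red) or lower (left, blue) in MDX_JJ101 than in B10_tap, ordered by the median difference, with the number tested in brackets. Dashed lines mark the shares over all genes, 16.2% higher and 17.4% lower; ATF4 targets, glucocorticoid-induced genes and Z-disc genes stood on the higher side and endothelial genes and the fast-fibre list, with 8 of 14 members measured on all 4 arrays, on the lower side, while the split itself moves with the scaling (2.35% of calls higher with spike-ins, 83.7% with median centring).

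Calls of higher genes became more frequent, and those of lower genes less frequent, with the level of the gene. Of the 5218 genes with the lowest mean level 3.87% were called higher and 32.7% lower, and the median difference was -0.55. Of the 5218 genes with the highest mean level 29.1% were called higher and 7.63% lower, with a median of 0.20. Counts of list members are to be read against these shares and against the 16.2% higher and 17.4% lower over all genes. The lowest signal well above background was -4.23 and -4.13 on the B10_tap arrays and -4.04 and -3.29 on the MDX_JJ101 arrays. A dim gene of equal level could thus pass in B10_tap alone. The part of this in the next counts was not tested. Among tested genes 2404 exceeded the background threshold on each B10_tap array and on neither MDX_JJ101 array, against 32 the other way round. Feature classes followed the same line: of 13579 protein-coding genes 21.0% were higher and 10.7% lower, and of 2356 transcribed regions without a symbol 4.03% were higher and 37.5% lower. The median level was 0.87 for the first and -2.07 for the second. Of 282 long non-coding RNA genes 18 were higher and 77 lower. The part of signal level in these class differences was not tested.

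**Figure D2:**
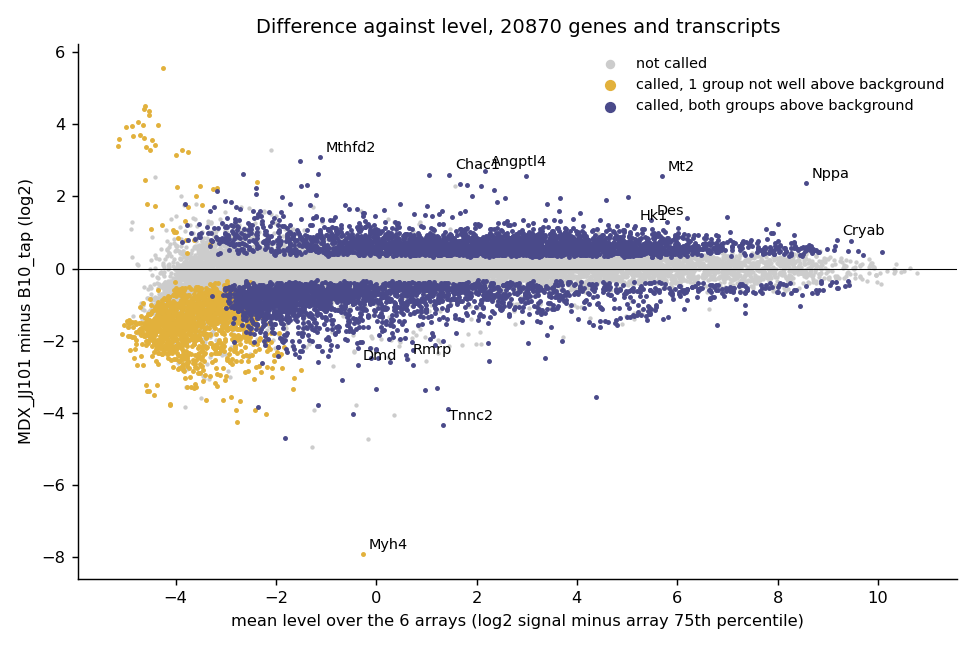
Difference between MDX_JJ101 and B10_tap (vertical axis, log2) against the mean level over the 6 arrays (horizontal axis, log2 signal minus the array's 75th percentile), 1 point per gene or transcript. Yellow points were called with a group not well above background on either array, and 1289 of these 1333 lie below 0; Dmd, Tnnc2 and Myh4 lie far below the cloud and Mthfd2, Nppa and Mt2 above it.

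Dystrophin itself, Dmd, had levels of 1.06 and 1.06 on the B10_tap arrays, -0.84 and -0.27 on the MDX_tap arrays and -1.50 and -1.74 on the MDX_JJ101 arrays. Both MDX_JJ101 arrays lay below every other array. The difference was -2.68 ± 0.21 (SE), a 6.42-fold lower level (limma, adjusted p = 0.00645), and the 3 probes of the gene gave -2.99 to -2.68. It was not called without B10_tap replicate 1 (limma, adjusted p = 0.0593) or replicate 2 (0.0544), and was called in the other 18 alternatives. Utrn, whose product utrophin can take dystrophin's place, had levels of -0.47 and -0.47 in B10_tap and -0.72 and -0.90 in MDX_JJ101. Its difference of -0.34 ± 0.16 did not pass (limma, adjusted p = 0.147), and it turned to 0.06 with median centring.

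Of 16 tested members of the dystrophin complex 7 were higher and 1, Dmd, lower, while 10 differences lay above 0 and 6 below, with a median of 0.37 that fell below 0 with the spike-in scaling. Sspn, which encodes sarcospan, had levels of 5.51 and 5.57 in B10_tap and 6.17 and 6.21 in MDX_JJ101 (difference 0.65 ± 0.10, limma, adjusted p = 0.0137). Dag1, whose product is cut into the dystroglycans, differed by 0.71 ± 0.13. For Sspn and Dag1 the MDX_tap arrays, 5.51 and 5.62 and 3.28 and 3.41, lay near or below the B10_tap arrays. Without MDX_JJ101 replicate 2 only 1 member was called higher.

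Fast skeletal fibre genes divided by how well they were measured. Of 14 tested members 8 were well above background on all 4 arrays, and of these Tnnc2, Pvalb and Tnni2 were lower, Mybpc2, Cacna1s and Atp2a1 higher, and the others not called. The other 6 members, all called lower, exceeded background on each B10_tap array and on at most 1 MDX_JJ101 array, so they entered the test through a group where they were high. Over all 14 the counts were 9 lower and 3 higher with a median of -2.63, and with every array required to be well above background they were 3 and 3 with a median of 0.27. Myh4, the myosin heavy chain of the fastest fibres, had levels of 2.62 and 2.28 in B10_tap and was not well above background on either MDX_JJ101 array, which makes it at least 69.5-fold lower (limma, adjusted p = 0.00944). Its MDX_tap arrays stood at 0.91 and 3.53, on both sides of B10_tap. Tnnc2, the fast troponin C, had levels of 3.14 and 2.62 in B10_tap and -1.53 and -1.40 in MDX_JJ101, a difference of -4.35 ± 0.82 (limma, adjusted p = 0.0196). Its MDX_tap arrays, 1.31 and 3.88, lay again on both sides. The same held for Pvalb, the calcium buffer parvalbumin, at 1.91 and 1.43 in B10_tap, 0.53 and 2.54 in MDX_tap, against -1.03 and -0.99 in MDX_JJ101 (difference -2.68 ± 0.65). Tnni2, the fast troponin I, differed by -2.57 ± 0.74, and Tnnt3, the fast troponin T, by -4.04 ± 0.79, with 1 of the MDX_JJ101 arrays well above background. The Z-disc gene Actn3 was at least 5.20-fold lower. Myh1 and Myh2, heavy chains of other fast fibres, were not well above background in MDX_JJ101 either.

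Among the higher members Mybpc2, the fast myosin-binding protein, had levels of 1.30 and 1.33 in B10_tap and 2.31 and 2.54 in MDX_JJ101 (difference 1.11 ± 0.12). Cacna1s, the voltage sensor of skeletal muscle, differed by 0.97 ± 0.11, and Atp2a1, the calcium pump of fast fibres, by 0.87 ± 0.17. The 3 higher members were tight within groups, whereas the lower ones were spread over the MDX_tap arrays, which share the variance estimate. Without MDX_JJ101 replicate 1, 2 lower members were called, and without replicate 2, 1 was. In RNA of a whole tissue, fewer cells of a type and less RNA per cell cannot be told apart.

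**Figure D3:**
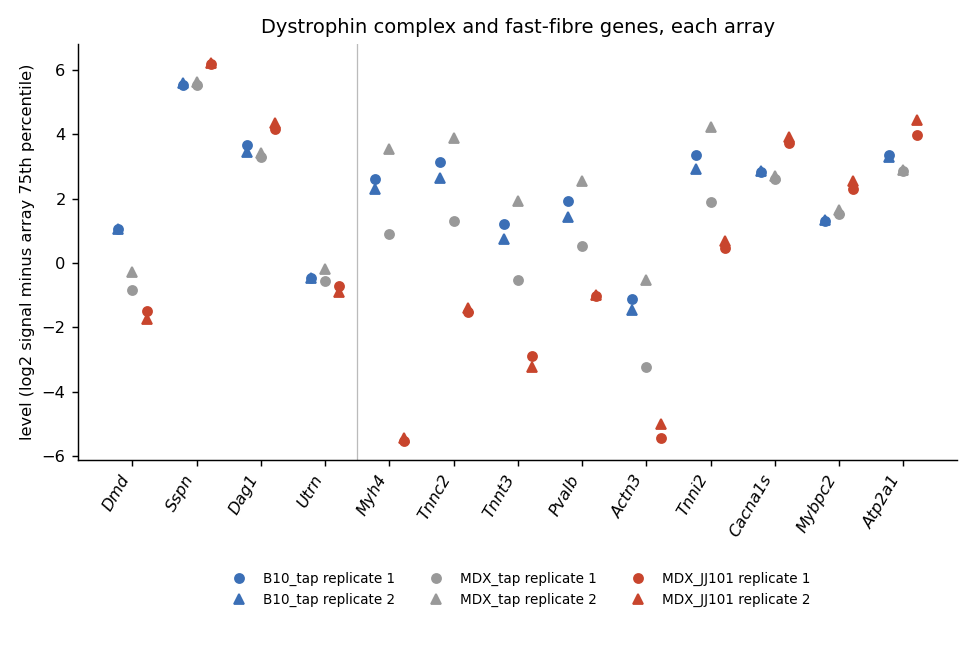
Level on each array (vertical axis, log2 signal minus the array's 75th percentile) of 4 genes of the dystrophin complex (left of the line) and 9 fast-fibre genes (right), with circles for replicate 1 and triangles for replicate 2. Dmd and the troponin, myosin and parvalbumin genes are lowest in MDX_JJ101 (red) and the fast-fibre genes of MDX_tap (grey) lie on both sides of B10_tap (blue), from 0.91 to 3.53 for Myh4; Cacna1s, Mybpc2 and Atp2a1 are highest in MDX_JJ101, and with the spike-in scaling no fast-fibre gene was called higher.

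Of 12 tested heart regulators and hormones 7 were higher and none lower, with a median of 0.64 that stayed above 0 under every scaling, although 1 member was called with the spike-ins. Nppa, the gene of atrial natriuretic peptide, had levels of 7.09 and 7.48 in B10_tap, 8.97 and 8.52 in MDX_tap, against 9.99 and 9.34 in MDX_JJ101. The groups did not overlap, and the difference was 2.37 ± 0.29, a 5.18-fold higher level (limma, adjusted p = 0.0104). Nppb, the gene of the related B-type peptide, gave 7.07 and 7.25 in B10_tap against 7.71 and 7.08 in MDX_JJ101 and did not pass (0.23 ± 0.27, limma, adjusted p = 0.531, -0.23 with the spike-ins). Ankrd1, a strain-induced repeat protein, differed by 1.09 ± 0.16, Nkx2-5 by 0.74 ± 0.10 and Gata4 by 0.59 ± 0.10. Among 10 heart contractile genes 3 were higher, with a median of 0.15 that fell below 0 with the spike-in and the restricted-percentile scalings. They were Mybpc3, the heart myosin-binding protein (0.78 ± 0.10), Myh7, the slow myosin of fetal and stressed mouse heart (1.40 ± 0.27), and Tnnc1, the slow and heart troponin C (0.52 ± 0.11). The mean level of the contractile list lay between 8.42 and 8.81 on the 4 arrays. The share of contractile genes called higher lay near the 29.1% among the 5218 genes of highest level. Myh6, the main myosin of adult mouse heart, had levels of 10.45 and 10.39 in B10_tap and 10.28 and 10.32 in MDX_JJ101 and did not pass (-0.12 ± 0.10, limma, adjusted p = 0.39). A further probe of the gene gave 0.52, and the sign turned with median centring (0.28) and with the mean of the probes (0.20).

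Of 19 tested genes of the Z-disc and of sarcomere strain 12 were higher and none lower, with a median of 0.77 that stayed above 0 under the other scalings, although 1 member was called with the spike-ins. Des encodes desmin, the filament that joins neighbouring myofibrils. Its levels were 5.04 and 4.92 in B10_tap, 5.15 and 5.08 in MDX_tap, against 6.23 and 6.42 in MDX_JJ101, a difference of 1.34 ± 0.12 (limma, adjusted p = 0.00745). Flnc, the muscle filamin, differed by 1.20 ± 0.16, Myom2, an M-band protein, by 0.92 ± 0.11 and Cryab, the small heat shock protein that guards desmin, by 0.79 ± 0.11. For Des and Cryab the MDX_tap arrays lay near the B10_tap arrays. The count was 7 without MDX_JJ101 replicate 2. Of 11 intercalated disc genes 1 was higher, Dsp, the gene of desmoplakin (0.85 ± 0.15), and the median of 0.16 fell below 0 with the spike-in and restricted-percentile scalings.

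Of 16 ion channel genes 4 were higher, all of potassium channels or their subunits: Kcnh2 (0.78 ± 0.12), Kcnj11 (1.18 ± 0.20, with a second probe at -0.35), Kcnip2 (1.10 ± 0.19) and Kcnq1 (0.99 ± 0.17). A further potassium channel gene outside the list, Kcnj4, was among the highest of all genes, with -2.50 and -2.22 in B10_tap and -0.41 and 0.30 in MDX_JJ101 (2.30 ± 0.34). Of 14 genes of heart calcium handling 2 were higher, Hrc, a calcium-binding protein of the reticulum (0.48 ± 0.13), and Camk2d, the heart's calmodulin kinase (0.43 ± 0.12), and 1 was lower, Trdn, the gene of triadin (-0.42 ± 0.11). Camk2d turned to -0.03 with the spike-in scaling, where the medians of both lists, 0.33 and 0.26 in the main fit, also fell below 0.

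Targets of ATF4 were mostly called higher, as counted after the sequences below. ATF4 is the transcription factor of the integrated stress response and switches on amino acid synthesis, amino acid transport and transfer RNA charging. It binds composite elements whose core reads TGATGNAA. In the 250 bases before the start sites of RefSeq promoters (GRCm38.p6), that core, on either strand, occurred in 7 of 21 listed genes with a promoter in the table (33.3%) and in 3.91% of all 27025 genes. The motif search was made after the values had been seen, and a match is a description, not a site. The windows below are shown because their genes were measured here, with the match in capitals.
Chac1 (chr2:119351024-119351081, plus strand): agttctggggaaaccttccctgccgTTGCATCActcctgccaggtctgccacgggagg
Asns (chr6:7693210-7693257, minus strand): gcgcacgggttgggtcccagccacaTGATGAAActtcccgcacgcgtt
Aars (chr8:111033705-111033762, plus strand): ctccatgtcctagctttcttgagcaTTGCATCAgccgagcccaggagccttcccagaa
Vldlr (chr19:27216795-27216852, plus strand): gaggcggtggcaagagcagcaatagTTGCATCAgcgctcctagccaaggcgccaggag
Nupr1 (chr7:126625548-126625605, minus strand): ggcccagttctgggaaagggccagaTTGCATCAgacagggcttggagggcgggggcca

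Of 23 tested ATF4 genes 17 were higher and 2 lower, with a median of 0.72 that stayed above 0 under every scaling. The counts were 13 higher without either MDX_JJ101 array, 12 with the restricted percentile and 4 with the spike-ins. Mthfd2, a mitochondrial enzyme of one-carbon metabolism, had the highest difference of all genes measured in both groups. Its levels were -2.82 and -2.68 in B10_tap, -0.72 and -1.13 in MDX_tap, against 0.78 and -0.11 in MDX_JJ101, a difference of 3.08 ± 0.32 or 8.48-fold (limma, adjusted p = 0.00944). Chac1, which degrades glutathione, had levels of 0.59 and 0.25 in B10_tap, 0.66 and 1.24 in MDX_tap, against 2.82 and 3.21 in MDX_JJ101 (2.60 ± 0.26). The MDX_tap arrays lay between the other groups for Mthfd2 and at or just above B10_tap for Chac1.

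The enzymes that make amino acids followed with smaller differences. Asns, the asparagine synthetase, differed by 1.54 ± 0.30, and Psat1 and Phgdh, enzymes of serine synthesis, by 1.07 ± 0.15 and 1.13 ± 0.27. The transfer RNA synthetases Sars (0.72 ± 0.09) and Aars (0.77 ± 0.10) were higher as well. Gdf15, a secreted stress hormone, had -0.75 and 0.06 in B10_tap and 2.43 and 2.05 in MDX_JJ101, a difference of 2.58 ± 0.46. Atf4 itself differed by 0.41 ± 0.11 (limma, adjusted p = 0.042) and turned to -0.04 with the spike-in scaling. Of the genes with a window shown, Chac1, Asns and Aars were called, whereas Vldlr (0.42 ± 0.15, limma, adjusted p = 0.0852), a lipoprotein receptor, and Nupr1 (0.41 ± 0.21, limma, adjusted p = 0.186), a stress-induced nuclear protein, were not. Slc7a5, an amino acid transporter of the list, was lower by the probe used (0.53 and -1.17 in B10_tap, -2.36 and -2.55 in MDX_JJ101, -2.13 ± 0.61), but its other probe gave a difference of 1.70, so its direction is not settled.

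Genes induced by glucocorticoids, the stress hormones of the adrenal gland, were mostly called higher too. Of 19 tested members 13 were higher and none lower, and all 19 differences were above 0, with a median of 0.96 that kept its sign under every scaling and 9 calls with the spike-ins. The median of MDX_tap minus B10_tap over the list was 0.67, against -0.06 over all genes. Replicate 1 of MDX_JJ101 lay above replicate 2 for 3 of the 19 members, with a median gap of -0.43. Arrdc2, an arrestin-domain gene, had levels of 0.89 and 0.92 in B10_tap, 0.62 and 1.10 in MDX_tap, against 2.97 and 3.53 in MDX_JJ101, a difference of 2.35 ± 0.25 (limma, adjusted p = 0.00944). Zbtb16, a transcription factor, had 1.41 and 2.08, 1.13 and 1.61, and 3.47 and 4.40 in the same order of groups. In both genes MDX_JJ101 lay above the other 2 groups, which overlapped. Fkbp5, the chaperone that restrains the glucocorticoid receptor, differed by 2.02 ± 0.20, and Cdkn1a, a brake of the cell cycle, by 2.29 ± 0.18, although a second Cdkn1a probe gave -0.32.

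Other members were higher in both MDX groups. Angptl4, an inhibitor of lipoprotein lipase, had levels of 0.21 and 0.45 in B10_tap, 3.06 and 3.21 in MDX_tap, against 2.38 and 3.70 in MDX_JJ101 (2.71 ± 0.43). Mt2, a metal-binding metallothionein, had 4.14 and 4.70, 6.04 and 5.38, and 6.77 and 7.19 (2.56 ± 0.31). The widely used marker Tsc22d3 did not pass (0.46 ± 0.14, limma, adjusted p = 0.0566), nor did Sgk1, a kinase gene (0.25 ± 0.16, limma, adjusted p = 0.268). Both turned below 0 with the spike-ins, to -0.0020 and -0.21. Sgk1 is the member of the list, out of 17 with a promoter in the table, whose 250 bases hold the full palindrome of AGAACA and TGTTCT with a gap of 3 bases, which occurred in 0.0111% of all genes. Its window is shown because the gene with this match was not among those called.
Sgk1 (chr10:21993676-21993740, plus strand): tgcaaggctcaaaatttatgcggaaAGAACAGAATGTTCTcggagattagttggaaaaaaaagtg

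**Figure D4:**
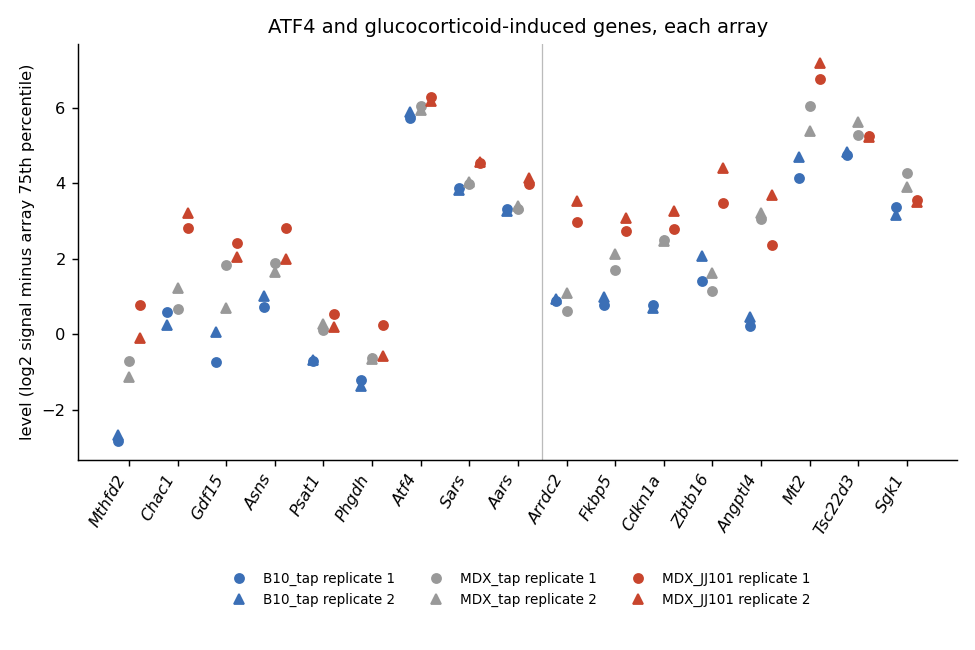
Level on each array (vertical axis, log2 signal minus the array's 75th percentile) of 9 ATF4 genes (left of the line) and 8 glucocorticoid-induced genes (right). MDX_JJ101 (red) lies above B10_tap (blue) for each gene shown, by 3.08 for Mthfd2 and by 0.25 for Sgk1; Atf4, Tsc22d3 and Sgk1 change sign with the spike-in scaling, and Tsc22d3 and Sgk1 lie highest in MDX_tap (grey).

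Of 21 autophagy and mitophagy genes 10 were higher and none lower (median 0.43, below 0 with the spike-ins). Tfeb, the master regulator of lysosome genes, had levels of 0.42 and 0.43 in B10_tap, 0.41 and 0.31 in MDX_tap, against 1.09 and 1.24 in MDX_JJ101 (0.74 ± 0.11, limma, adjusted p = 0.0126). Lamp1, a lysosomal membrane protein, differed by 0.71 ± 0.10, Map1lc3b, a protein of the autophagosome membrane, by 0.83 ± 0.12 and Sqstm1, a cargo receptor, by 1.34 ± 0.26. Atg4b, the protease that primes that membrane protein, differed by 0.83 ± 0.12. The E-box CACGTG, the core bound by TFEB, was found on either strand in the 250 bases of 5 of 17 listed genes (29.4%) and of 6.86% of all genes. Lamp1 had 4 copies and is shown for that, while Atg5, Atg7, Ctsl and Bnip3 had 1 copy each. Atg7, chosen after its value was seen, differed by 0.52 ± 0.14. The differences of Atg5, Ctsl and Bnip3 are not given here, so the matches are not set against the differences.
Lamp1 (chr8:13159075-13159160, plus strand): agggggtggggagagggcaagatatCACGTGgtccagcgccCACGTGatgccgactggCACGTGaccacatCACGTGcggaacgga

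The other pairs of a motif and a list were searched in the same way and are given as values. TGCGCNC, the core of the metal response element, was in 4 of 21 antioxidant genes and 14.0% of all genes. TTANGTAA was in 1 of 10 clock output promoters (10.0%), that of Per3, and 2.44% of all. TGACCTTT was in no citric acid cycle or fatty acid promoter and in 1.55% of all. TTCTAGAA was in 2 of 16 chaperone promoters (12.5%) and 1.08% of all. These 2, of Hspd1 and Hspe1, hold the same match, read from opposite strands of a shared stretch. No match says only that these letters were not in the window.

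Of 15 ubiquitin ligase and atrophy genes 6 were higher (median 0.38, below 0 with the spike-ins). They included Mul1, a ligase of the mitochondrial membrane (0.77 ± 0.12), Smad3 (0.65 ± 0.11), Eif4ebp1, a brake on translation (0.65 ± 0.12), Fbxo21 (0.78 ± 0.16) and Fbxo32, the atrophy ligase atrogin-1 (0.96 ± 0.21). Trim63, the other classical atrophy ligase, had 5.26 and 5.10 in B10_tap and 5.24 and 5.58 in MDX_JJ101 and did not pass (0.23 ± 0.17, limma, adjusted p = 0.317, -0.23 with the spike-ins). Of 25 proteasome genes 7 were higher and 1 lower (median 0.27, below 0 with the spike-ins), and 3 were higher without the MDX_tap arrays in the fit. The mean level of the proteasome list lay between 5.04 and 5.34 on the 4 arrays. The share of proteasome genes called higher lay near the 29.1% among the 5218 genes of highest level. Psmc5, Psmd4 and Psmd1, subunits of the proteasome cap, differed by 0.64 ± 0.12, 0.60 ± 0.11 and 0.51 ± 0.10, and Psmc6 by -0.38 ± 0.09, which turned to 0.02 with median centring. Without MDX_JJ101 replicate 2, 3 ligase genes and 1 proteasome gene were called higher.

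Of 20 glycolysis and glycogen genes 10 were higher and none lower (median 0.47), and of 16 citric acid cycle genes 8 were higher and none lower (median 0.47). Both medians stayed above 0 under every scaling, but with the spike-ins they were 0.0064 and 0.0077, where that of all genes was -0.47. No member of either list was called with the spike-ins. Hk1, a hexokinase, had levels of 4.60 and 4.74 in B10_tap, 4.93 and 4.91 in MDX_tap, against 5.82 and 5.89 in MDX_JJ101 (1.18 ± 0.10, limma, adjusted p = 0.00754). The glycolytic genes Tpi1, Gpi1 and Pgam2 differed by 0.73 ± 0.10, 0.81 ± 0.13 and 0.56 ± 0.10. In the citric acid cycle Idh2 differed by 0.51 ± 0.10, Cs by 0.67 ± 0.14 and Ogdh by 0.71 ± 0.15. These genes are highly expressed, and the count is to be read against the 29.1% called higher among the 5218 genes of highest level. Without MDX_JJ101 replicate 2, 3 glycolysis genes and none of the cycle were called.

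Of 25 genes of fatty acid uptake and oxidation 5 were higher and none lower. They included Ppara, the lipid-sensing receptor (0.61 ± 0.12), Mlycd (0.70 ± 0.15), Echs1 (0.48 ± 0.11) and the uncoupling protein gene Ucp3 (0.84 ± 0.20). Of 12 genes of mitochondrial biogenesis and dynamics 5 were higher, among them Mfn2, a fusion protein (0.76 ± 0.10), Polg, the mitochondrial DNA polymerase (0.92 ± 0.12), Esrra (0.46 ± 0.10) and the coactivator Ppargc1a (0.75 ± 0.17). The medians of the 2 lists, 0.38 and 0.41, fell below 0 with the spike-ins. Without MDX_JJ101 replicate 2 no fatty acid gene and 2 of the biogenesis genes were called. Of 29 oxidative phosphorylation genes 5 were higher and 3 lower (median 0.12, below 0 with the spike-ins, the restricted percentile and the authors' table). Cyc1 and Uqcrc1 of complex III differed by 0.55 ± 0.10 and 0.73 ± 0.14 and Ndufv1 of complex I by 0.39 ± 0.10, whereas Cox7b of complex IV differed by -0.46 ± 0.11. Ndufv1 turned to -0.06 with the spike-ins. The counts of these 3 lists are to be read against the 29.1% called higher among the 5218 genes of highest level. The shares of fatty acid and oxidative phosphorylation genes called higher lay near the 16.2% over all genes and below that 29.1%.

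Of 27 antioxidant genes 7 were higher and none lower (median 0.27, below 0 with the spike-ins). Besides Mt2 these were led by Prdx5, a peroxiredoxin (0.57 ± 0.09), the metallothionein Mt1 (1.24 ± 0.22) and Gsr, which regenerates glutathione (0.55 ± 0.12). The mean level of the antioxidant list lay between 4.21 and 4.58 on the 4 arrays. Its share called higher lay below the 29.1% among the 5218 genes of highest level. None of 7 NADPH oxidase genes was called by limma. The 2 with the smallest p were Rac1 (0.27 ± 0.09) and Ncf1 (0.33 ± 0.12), both of which turned below 0 with the spike-ins. Of 19 chaperone genes 7 were higher and 1 lower (median 0.32, below 0 with the spike-ins), with Hspb1 (1.00 ± 0.10), Hsph1 (0.76 ± 0.11), Hspb8 (0.58 ± 0.09) and Hsp90ab1 (0.63 ± 0.11) at the head. None of 29 cytosolic ribosomal protein genes was called. Rps14 (-0.37 ± 0.11) and Rpl5 (-0.38 ± 0.11) came nearest, and the median of the list was -0.03. Both genes and the median turned above 0 with median centring.

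Matrix genes split between the 2 MDX_JJ101 arrays. The mean level of the 30 collagen and matrix genes was 1.74 and 1.68 on the B10_tap arrays, 2.63 and 2.64 on the MDX_tap arrays, and 2.29 and 1.62 on the MDX_JJ101 arrays. Replicate 1 of MDX_JJ101 lay above replicate 2 for all 30 genes, against 49.3% of all genes on the array, with a median gap of 0.70. By the mean of the list, replicate 1 thus lay between the other groups and replicate 2 below both B10_tap arrays. Single members did not all follow, as the levels below show. Of the 30 genes 1 was higher and 3 lower (none and 1 in a fit of only the compared groups), and the median was 0.29, 0.01 without replicate 1, 0.49 without replicate 2, and below 0 with the spike-ins. Without replicate 2, 12 members were higher and 2 lower, without replicate 1, 1 was higher and 6 lower, and with median centring 19 were higher and 1 lower.

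Col1a1, the chain of type I collagen, was higher, with 2.75 and 2.88 in B10_tap, 4.11 and 4.13 in MDX_tap, against 4.37 and 3.50 in MDX_JJ101 (1.12 ± 0.28, limma, adjusted p = 0.0368). Without the MDX_tap arrays in the fit its adjusted p was 0.066 by limma, and Dcn (0.0555) and Lum (0.0688) were not called either. Col3a1, of type III collagen, had 4.09 and 3.91, 5.70 and 5.83, and 5.33 and 4.18 in the same order and did not pass (0.75 ± 0.37, limma, adjusted p = 0.168). Postn, the gene of periostin, had 1.29 and 1.34, 3.47 and 3.48, and 2.77 and 1.42 (0.78 ± 0.43, limma, adjusted p = 0.206). In both, 1 MDX_JJ101 array stood near B10_tap. Fn1, the gene of fibronectin, repeated the pattern with 4.19 and 3.35 in MDX_JJ101 against 3.04 and 3.14 in B10_tap. The small proteoglycan genes Dcn (8.60 and 8.51 in B10_tap, 8.06 and 7.61 in MDX_JJ101, -0.72 ± 0.17) and Lum (-1.10 ± 0.29) were lower, as was Thbs2, a matricellular protein (-0.64 ± 0.11). For Dcn and Lum the MDX_tap arrays, 9.02 and 9.14 and 5.71 and 5.78, lay above B10_tap.

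Of 22 tested regulators of matrix turnover 6 were higher and 1 lower (median 0.20, below 0 with the spike-ins), and 3 were higher in a fit of only the compared groups. Ccn2, a growth factor of fibrosis, had levels of 3.32 and 3.50 in B10_tap, 5.15 and 4.94 in MDX_tap, against 5.45 and 5.18 in MDX_JJ101 (1.90 ± 0.15, limma, adjusted p = 0.00645). The Ccn2 replicates of MDX_JJ101 stayed together, above all other arrays. Tgfb3 differed by 0.64 ± 0.11. Ltbp2, which binds microfibrils, had -0.06 and -0.10 in B10_tap, 3.17 and 3.34 in MDX_tap, against 3.21 and 1.28 in MDX_JJ101 (2.33 ± 0.61), and Timp1, an inhibitor of matrix proteases, had 3.61 and 2.12 in MDX_JJ101 against 0.57 and 1.26 in B10_tap. Fap, a protease of activated fibroblasts, was lower (-0.90 ± 0.20).

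**Figure D5:**
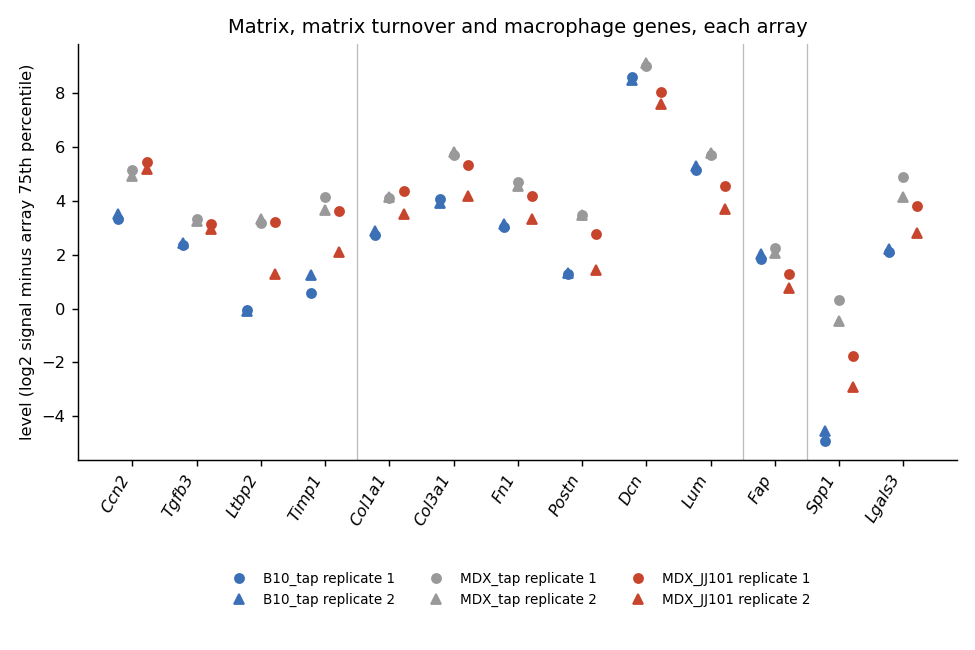
Level on each array (vertical axis, log2 signal minus the array's 75th percentile) of matrix turnover genes, matrix genes, Fap and macrophage genes, from left to right between the lines. Ccn2 is tight and highest in MDX_JJ101 (red), whereas for Ltbp2, Timp1, Col3a1 and Postn the 2 MDX_JJ101 arrays stand apart, at 2.77 and 1.42 for Postn, and the other MDX group (grey) is high on both arrays.

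The mean level of the 23 macrophage genes was 1.02 and 1.02 in B10_tap, 2.41 and 1.91 in MDX_tap, against 1.42 and 0.94 in MDX_JJ101, with replicate 1 above replicate 2 for 21 of them. Only Spp1, the gene of osteopontin, was called: it was not well above background on either B10_tap array and stood at -1.77 and -2.91 in MDX_JJ101, at least 3.58-fold higher. Lgals3, the gene of galectin-3, had 2.11 and 2.21 in B10_tap, 4.88 and 4.16 in MDX_tap, against 3.83 and 2.80 in MDX_JJ101 and did not pass (1.15 ± 0.40, limma, adjusted p = 0.0772). The median of the list was 0.11, and it fell below 0 with every other scaling but median centring. None of 6 MHC class II genes was called, with H2-DMb1 (-0.33 ± 0.26, 0.07 with median centring) and H2-Ab1 (0.22 ± 0.22, -0.24 with the spike-ins) nearest. Of 16 complement genes 1 was lower, Cd55, a shield against complement (-0.89 ± 0.16).

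Of 6 B and plasma cell genes 4 were lower, 2 of them well above background on all 4 arrays. Cd22, a B cell receptor, had -0.32 and -0.32 in B10_tap and -1.19 and -1.20 in MDX_JJ101 (-0.87 ± 0.11), and Cd79b differed by -1.15 ± 0.28. Ms4a1 was not well above background on either MDX_JJ101 array. Of 12 T and NK cell genes 2 were lower, a share near the 17.4% over all genes. They were Prf1, the gene of perforin (-0.91 ± 0.20), and Cd3e (-0.41 ± 0.11). Of 5 neutrophil genes 3 were lower, among them Elane, neutrophil elastase (-1.11 ± 0.14), and Csf3r (-0.60 ± 0.11), against 17.4% of all genes. Camp was not well above background in MDX_JJ101 and passed the filter through another group. The median of the neutrophil list was -0.60. With every array required to be well above background it was -0.10, with 2 members lower. Of 7 mast cell genes 2 were higher and 1 lower. The protease gene Mcpt4 had -1.01 and -1.33 in B10_tap and 0.54 and 0.05 in MDX_JJ101 (1.47 ± 0.21), Fcer1a was not well above background in either group, and Tpsb2 differed by -0.66 ± 0.16, with the opposite sign for its other probe and for the mean of both (0.26). Of 23 cytokine genes 3 were higher, Nfkb2 (0.79 ± 0.10), the inhibitor gene Nfkbia (0.58 ± 0.10) and the chemokine gene Ccl6 (0.49 ± 0.13), while the median of the list was -0.46, 0.17 without MDX_JJ101 replicate 2 and 0.15 with every array required to be well above background. Of 17 interferon-response genes 2 were lower, Gbp3 (-1.14 ± 0.24) and Gbp2 (-0.88 ± 0.20). The share of cytokine genes called higher lay below the 16.2% over all genes. That of interferon-response genes called lower lay below the 17.4% over all genes.

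Of 14 endothelial genes 9 were lower and none higher, with a median of -0.54 that stayed below 0 under every scaling. With median centring the median was -0.14, and 2 members were called lower and 1 higher. Tek, the receptor of angiopoietins, had levels of 1.16 and 1.28 in B10_tap, 1.20 and 0.95 in MDX_tap, against 0.33 and 0.33 in MDX_JJ101 (-0.89 ± 0.12, limma, adjusted p = 0.0123). Kdr, the main receptor of VEGF, had 4.56 and 4.45, 4.31 and 4.35, and 3.75 and 3.41 (-0.93 ± 0.14). Cdh5, the cadherin of endothelial junctions, differed by -0.65 ± 0.12 and Emcn by -0.54 ± 0.10. For these 4 genes both MDX_JJ101 arrays lay below all 4 other arrays. The mean level of the 14 genes was 3.74 and 3.71 in B10_tap and 3.26 and 3.21 in MDX_JJ101. Without MDX_JJ101 replicate 2, 3 members were called lower, and 6 without replicate 1.

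Of 10 smooth muscle and pericyte genes 3 were lower and 2 higher. The pericyte genes Rgs5 (-0.71 ± 0.09) and Kcnj8 (-1.01 ± 0.14) and the smooth muscle myosin Myh11 (-0.82 ± 0.15) were lower, and Smtn, the gene of smoothelin, was higher (0.71 ± 0.12). Of 10 Schwann cell and nerve genes 3 were lower, among them Sox10, their lineage factor, with -0.81 and -1.06 in B10_tap and -1.68 and -1.46 in MDX_JJ101 (-0.63 ± 0.14). Of 6 adipocyte genes 3 were well above background on all 4 arrays. Of these Fabp4, a fatty acid binding protein that endothelial cells also make, was lower (-0.51 ± 0.12), and the others, both above 0, were not called. The other 3, Adipoq, Retn and Cidec, were called lower but not well above background on either MDX_JJ101 array, and passed the filter through another group. Of 4 red blood cell genes the globin gene Hbb-bt was lower (-1.24 ± 0.31), with near-identical copies that share its probe's signal. None of 7 liver genes was called, with Alb at -1.91 and -0.15 in B10_tap and not well above background in MDX_JJ101. None of 3 genes of the sex check was called. Among 8 limb muscle regulators 1 was lower, Pax7, the gene of satellite cells, which was not well above background in MDX_JJ101.

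Clock and immediate early genes were mostly not called. Of 5 clock activators 2 were higher, among them Nfil3 (1.09 ± 0.13), and Arntl, the gene of BMAL1, had 0.12 and -0.69 in B10_tap and 0.54 and 0.82 in MDX_JJ101 (0.97 ± 0.29, limma, adjusted p = 0.0536). None of 12 clock repressor and output genes was called, with Hlf (-0.49 ± 0.15) and Nr1d2 (-0.45 ± 0.14) nearest and a median of -0.01 that turned above 0 with median centring. Dbp, an output gene with a strong daily rhythm, had levels of 5.62 and 5.94 in B10_tap, 4.46 and 4.38 in MDX_tap, against 5.62 and 5.62 in MDX_JJ101. The MDX_JJ101 arrays stood level with the lower B10_tap array and above both MDX_tap arrays. The difference of -0.16 ± 0.14 did not pass and turned to 0.24 with median centring. Of 21 immediate early genes 2 were higher, Myc (1.35 ± 0.13) and Maff (0.55 ± 0.11), and of 20 cell division genes 1 was, Aurka (0.79 ± 0.15).

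Some of the largest differences lay outside the lists. Mark1, a kinase of microtubule proteins, had -3.63 and -3.08 in B10_tap, -0.47 and -1.22 in MDX_tap, against -0.86 and 0.14 in MDX_JJ101 (2.99 ± 0.43). Sprr1a, a small stress-induced protein, differed by 2.61 ± 0.37 and Ndrg4, a gene of heart and brain, by 2.57 ± 0.25. In these 3 genes both MDX groups lay above B10_tap. Prss43, Skint1, Clrn1 and Avp were not well above background in B10_tap and at least 5.73, 5.05, 4.93 and 4.44-fold higher in MDX_JJ101.

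On the lower side, structural RNAs stood out in size. Of 10 small structural RNA genes 9 were lower and none higher. Rnu3b1, a small nucleolar RNA of ribosome assembly, had 2.30 and 2.89 in B10_tap and -1.08 and -1.52 in MDX_JJ101 (-3.90 ± 0.66), and Rmrp, the RNA of RNase MRP, had 1.05 and 1.44 against -0.80 and -1.75 (-2.52 ± 0.36). These RNAs lack a poly(A) tail, and Rnu3b1 belongs to a family of near-identical copies, so its values are uncertain. Klra8, an NK receptor gene of a repeated family and likewise uncertain (-2.25 ± 0.25), the non-coding Gdap10 (-2.25 ± 0.22), Aspa, which cleaves acetylaspartate (-2.02 ± 0.40), Pnma2 (-2.01 ± 0.20) and the channel gene Trpm1 (-1.89 ± 0.35) completed the lowest measured genes. Ing2 and Cmtm5 were not well above background in MDX_JJ101 and at least 7.26-fold and 5.11-fold lower.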

How the data were processed

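Total RNA was labelled with Cy3 and hybridised to 6 one-colour Agilent arrays of 59305 non-control spots. Agilent Feature Extraction 11.5.1.1 produced the deposited intensity values, per the submitters' processing notes. Per the file headers these are processed signals with flags for outlier, saturated and well-above-background spots, deposited with each intensity and coded as other, 0 or 1, values. The authors' deposited series table held log2 values and served as an alternative.

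Each signal was divided by its array's 75th percentile and taken to log2, and a probe's spots were averaged without flagged outliers. Probes were named through RefSeq accessions in a gene table of GRCm38.p6: 27656 of 55681 probes had a symbol. A probe was kept if well above background on both arrays of a group (27260 probes), and the brightest probe stood for its gene, giving 20870. A gene could thus pass through the group where it was high. No tested probe was saturated, and 8 values were missing. The 3 groups were fitted together in limma 3.58.1 (R 4.3.3) without a replicate block, with 3 residual and 2.21 prior degrees of freedom. Replicate numbers were not taken to pair the arrays: deviations correlated at -0.06 between the compared groups, -0.03 between B10_tap and MDX_tap and 0.16 between the MDX groups. A fold bound sets the bright group's mean against the lowest signal well above background, or the dim probe's own where higher. Alternatives changed the scaling, background correction, filter, probe rule, fit or arrays left out, and normexp changed background correction and normalization together. Precision is limited by how few arrays there are.

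The comparison and the gene lists were chosen with earlier results of these data known. Named genes are Dmd and Utrn, the 12 highest and 12 lowest called genes with separate groups measured on all 4 arrays, the 4 largest bounds in each direction, and up to 4 called members of each list (2 uncalled ones where none was called), without identifiers and family repeats. Chosen after their values were seen were Col3a1, Postn, Fn1, Timp1, Lgals3, Dbp, Arntl, Nppb, Myh6, Atp2a1, Myh1, Myh2, Tnnt3, Asns, Psat1, Phgdh, Atf4, Vldlr, Nupr1, Tsc22d3, Sgk1, Fbxo32, Trim63, Sqstm1, Atg7 and Zbtb16, and the 7 promoter motifs. Some genes that this rule names are not reported here.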

Additional observations from a re-analysis of the deposited data

How the results depend on the processing

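Against 7009 called genes in the report, 4459 were called with the spike-in scaling and 14092 without the filter on dim genes, and 76 to 6908 when 1 array was left out. Higher calls (3376) came to 8457 with median centring, 1793 with the 75th percentile over spots well above background on every array, 105 with the spike-ins, 10303 without the filter and 9 to 3123 with 1 array left out. Lower calls (3633) came to 1645 with median centring and 67 to 3785 with 1 array left out. Genes called with at least a 2-fold difference (899) numbered 2166 with median centring, 2473 with the spike-ins, 402 with normexp and quantile normalization, 471 with the authors' table, 1429 with every probe and 14 to 1359 with 1 array left out. Of these, higher ones (279) numbered 1947, 138 with the restricted percentile, 68, 72, 88 and 3 to 453, and lower ones (620) numbered 219, 980 with the restricted percentile, 2405, 330, 383, 1071 and 10 to 906, in the same order.

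Some named genes changed sign. With the spike-ins these were Atf4 (-0.0449), Camk2d (-0.0315), H2-Ab1 (-0.24), Ncf1 (-0.13), Ndufv1 (-0.0649), Nppb (-0.23), Nupr1 (-0.047), Rac1 (-0.19), Sgk1 (-0.21), Trim63 (-0.23), Tsc22d3 (-0.0020) and Vldlr (-0.037). With median centring they were Dbp (0.24), Eif2s3y (0.24), H2-DMb1 (0.0675), Myh6 (0.28), Psmc6 (0.0209), Rpl5 (0.0234), Rps14 (0.0347) and Utrn (0.0635). With the mean of a gene's probes they were Myh6 (0.20) and Tpsb2 (0.26). With 1 array left out, Dbp ranged from -0.3212 to 0.0068, turning without B10_tap replicate 2. H2-Ab1 ranged from -0.0085 to 0.4514 and Nppb from -0.077 to 0.5453, both turning without MDX_JJ101 replicate 1. Median centring and the spike-in scaling move all genes of an array together. The cause of the other changes was not tested.

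Replicate numbers were not taken to pair the arrays, and with the replicate block 5864 genes were called, 147 of the 160 called genes named here among them. The planned normexp on mean signals was not run, and median signals were used, a choice made after seeing the data. With 2 arrays a group, many small differences may have been missed, and genes not well above background have bounds only.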
